A study of Mus musculus with 2 samples.

Results

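The cells described here were erythroblasts at the onset of hemoglobin RNA in mouse bone marrow. They were selected on the measured share of hemoglobin UMIs, taken over all genes whose symbols begin with Hba- or Hbb-. A UMI is 1 counted RNA molecule. A cell was a member when its barcode held at least 200 genes, hemoglobin made up at least 1% and less than 20% of its UMIs, *Cd79a* was at 0 UMIs, and *C1qa*, *C1qb* and *C1qc* together had fewer than 5 UMIs. *Elane* and *Prtn3* together also had to stay below 0.2% of its UMIs, and the neutrophil granule genes *Camp*, *Ngp*, *Ltf*, *Lcn2*, *S100a8* and *S100a9* below 2%. The rule found 742 cells among 9933 kept cells, with 692 of 6271 in the WT library and 50 of 3662 in the Cko library.

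Sc-RNA-Seq was performed on bone marrow cells (BMCs) from hindlimbs and forelimbs of 1 WT and 1 S1P Cko mouse of the C57BL6/J strain at postnatal day 21. S1P is site-1 protease, the product of *Mbtps1*. In Cko mice a floxed exon of *Mbtps1* was deleted by a Cre-GFP fusion under the Osx1 (*Sp7*) promoter, which is used to drive Cre in osteoblast-lineage cells and may also act in hematopoietic cells, and the WT mouse carried the floxed alleles without Cre. The marrow was treated with a lysis buffer for red blood cells before capture. As each genotype was 1 library, no test was made. Intervals are 95% intervals for counting error only, exact binomial for shares, exact Poisson for levels and exact conditional for ratios, and they do not cover differences between animals.

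Red cells are made from progenitors that divide several times while they switch on globin genes, heme synthesis and the membrane skeleton. Heme is built by a chain of enzymes that starts and ends in the mitochondrion, and its first step in erythroid cells is made by *Alas2*. The factors *Gata1* and *Klf1* bind GATA and CACCC sequences, respectively, in regulatory regions of many erythroid genes. Globin RNA then accumulates until it makes up most of the RNA of the cell.

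The promoters of 4 heme synthesis genes and markers that held such letters are printed because the levels of these genes in the members are described next. Each spans the 250 bases before and 50 bases from the RefSeq transcript start, in GRCm38.p6, and is written in the direction of transcription. Capitals mark 2 kinds of letters, searched on both strands and therefore also printed as their reverse complements. The first kind, called GATA, was an A or T followed by the letters GATAA. The second kind, called CACCC, was CCACACCC or else CCCCACCC. Among all 32841 promoters of this length, 18.6% held the GATA letters, 13.1% the CACCC letters and 1.74% both. Among the 4356 promoters of the genes compared below, these shares were 10.4%, 14.6% and 1.74%. Of the 7 heme synthesis genes found in the promoter table, 3 (*Alas2*, *Cpox* and *Uros*) held GATA letters and 2 (*Alas2* and *Alas1*, the latter not printed because it was too low to be compared) held CACCC letters. These 7 genes had 10 promoters, of which 30% held GATA letters and 20% CACCC letters. Of the 4 markers found in the promoter table, 0 held GATA letters and 1 held CACCC letters. The *Alas2* promoter (chrX:150547167-150547466, + strand) held 1 GATA and 2 overlapping CACCC matches, and the GATA match did not overlap these. The *Cpox* promoter (chr16:58669958-58670257, + strand) held 2 GATA matches, the *Uros* promoter (chr7:133702451-133702750, - strand) 1, and the *Cd59a* promoter (chr2:104095551-104095850, + strand) 2 separate CACCC matches. A match describes the letters alone and does not show that a factor binds there.
Alas2: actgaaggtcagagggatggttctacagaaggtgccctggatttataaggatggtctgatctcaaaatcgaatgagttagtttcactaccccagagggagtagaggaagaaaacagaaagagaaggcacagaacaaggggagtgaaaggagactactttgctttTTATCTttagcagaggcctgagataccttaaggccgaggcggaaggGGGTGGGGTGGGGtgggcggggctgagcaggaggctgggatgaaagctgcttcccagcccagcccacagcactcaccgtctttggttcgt
Cpox: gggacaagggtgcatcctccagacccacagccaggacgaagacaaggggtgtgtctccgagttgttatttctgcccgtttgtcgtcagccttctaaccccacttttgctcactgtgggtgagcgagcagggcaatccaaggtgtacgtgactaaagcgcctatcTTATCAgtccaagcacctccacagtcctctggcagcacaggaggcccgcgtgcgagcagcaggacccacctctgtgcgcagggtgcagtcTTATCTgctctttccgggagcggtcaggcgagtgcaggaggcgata
Uros: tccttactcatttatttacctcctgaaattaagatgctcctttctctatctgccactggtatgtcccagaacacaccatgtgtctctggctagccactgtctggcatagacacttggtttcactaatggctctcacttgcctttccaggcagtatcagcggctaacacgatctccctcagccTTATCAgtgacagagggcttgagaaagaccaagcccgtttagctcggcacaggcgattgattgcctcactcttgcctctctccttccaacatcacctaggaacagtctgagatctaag
Cd59a: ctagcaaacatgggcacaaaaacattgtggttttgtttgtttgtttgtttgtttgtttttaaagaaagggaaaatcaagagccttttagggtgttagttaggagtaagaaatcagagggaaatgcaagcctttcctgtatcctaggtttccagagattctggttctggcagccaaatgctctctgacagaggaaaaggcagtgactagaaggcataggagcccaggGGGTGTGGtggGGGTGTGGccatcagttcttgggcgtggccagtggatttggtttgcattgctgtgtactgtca

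The members had a median of 12357 UMIs (3111 to 36849) and 2342 genes per cell in WT, and of 17000.5 UMIs (4785 to 43412) and 2611.5 genes in Cko. Hemoglobin made up a median of 6.14% of their UMIs in WT and 6.55% in Cko. These median shares are set by the limits of the rule. Free hemoglobin RNA can enter droplets of other cells, and the median hemoglobin share of cells with at least 3 *Cd79a* UMIs was taken as its level. This median was 0.318% over 925 cells in WT and 0.0795% over 648 cells in Cko, both under the limit of 1%. Single cells exceeded it, however: 108 of the 925 (11.7%) in WT and 10 of the 648 (1.54%) in Cko held at least 1% hemoglobin. The cells nearest to the limit of 1% held 0.989% and 1.02% in WT and 0.961% and 1.16% in Cko. Below the limit of 20%, the nearest cells held 19.97% in WT and 19.7% in Cko, and the nearest cells above it were within rounding of 20% in both. The limits on *Cd79a*, on C1q genes, on *Elane* with *Prtn3* and on granule genes together removed 184 of 876 cells in the hemoglobin range in WT and 27 of 77 in Cko. Of these, 51 in WT and 6 in Cko were removed only for 1 or 2 *Cd79a* UMIs, and all of them carried at least 3 markers of the erythroblasts. The libraries shared 28 barcode sequences. None of these was a member in both, and 3 were a member in 1 of the libraries. Scrublet marked 9 members in WT and 1 in Cko as doublets, and these cells were kept.

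The label was checked with 5 markers that had been chosen on these data, so the check is not independent of them. At least 3 of the 5 were found in 686 of 692 members in WT (99.1%, 98.1 to 99.7) and in 49 of 50 in Cko (98%, 89.4 to 99.9). All 5 were found in 346 and 30 cells. Among B cells, defined by at least 3 *Cd79a* UMIs and hemoglobin under 1%, 3.43% in WT and 0.627% in Cko held at least 3 markers, at median depths of 5867 and 6952.5 UMIs. After each cell was thinned to 3000 UMIs, the values were 88.9% and 78% for members and 1.47% and 0.157% for B cells. The neighbouring erythroid stages, defined below, carried the markers as well. Without thinning, at least 3 were found in 90.6% of WT and 79.3% of Cko cells before hemoglobin. Of intermediate cells, 92.4% held at least 3 in either library. The check thus bears on erythroid identity more than on the onset stage. Genes of other cell types were also counted. At least 3 megakaryocyte markers were found in 4 members in WT and 1 in Cko, and at least 3 stromal markers in 3 and 0 members. The corresponding numbers were 41 and 6 for myeloid progenitor, 9 and 3 for neutrophil, 8 and 1 for monocyte, 6 and 1 for dendritic cell, 5 and 1 for B cell, 5 and 1 for macrophage and 2 and 0 for basophil and mast cell markers. As shares of members, they were 5.92% in WT (4.28 to 7.95) and 12% in Cko (4.53 to 24.3) for myeloid progenitor markers. For neutrophil markers they were 1.30% (0.596 to 2.45) and 6% (1.25 to 16.5). The intervals overlapped, and the shares were not thinned, while Cko members had more UMIs per cell. Per 1000000 UMIs without hemoglobin, myeloid progenitor markers summed to 88.7 in WT and 84.8 in Cko, and neutrophil markers to 70.3 and 106. The other Cko counts were 0 or 1 cell. Low counts were partly set by the rule, which limited *Elane*, *Prtn3*, *Cd79a*, C1q and granule RNA. No member held 3 markers of T and NK cells, of eosinophils or of stem cells, and the eosinophil granule genes *Epx* and *Prg3* were at 0 in both libraries. The eosinophil list had only 3 genes, and of 6 stem cell genes 3 were listed in WT and 4 in Cko. A cell had to hold all or nearly all of these, so the 0 counts for these lists say little.

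The erythroblasts at hemoglobin onset took up 11.0% of the kept cells in WT (10.3 to 11.8) and 1.37% in Cko (1.02 to 1.80), a ratio of 0.124 (0.0909 to 0.165). Other erythroid stages were also less frequent in Cko. Cells before hemoglobin, with hemoglobin under 1% and at least 2 UMIs over the factors *Klf1*, *Gata1*, *Gfi1b* and the receptor gene *Epor*, were 7.97% of WT and 3.69% of Cko cells. Cells with intermediate hemoglobin, from 20% to under 50% of UMIs, were 7.35% and 2.51%. Late cells, with hemoglobin at 50% or more, were 24.5% and 7.67%. The ratio of Cko to WT was thus 0.462 (0.379 to 0.560) before hemoglobin, 0.124 at onset, 0.342 (0.270 to 0.428) at the intermediate stage and 0.313 (0.275 to 0.356) at the late stage. The interval at onset did not overlap those of its neighbours.

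Shares were also taken within cells that passed the same exclusions and carried hemoglobin at 1% or more, to set most other cells aside. Among these, the onset erythroblasts made up 25.7% of 2691 cells in WT (24.1 to 27.4) and 11.8% of 423 cells in Cko (8.90 to 15.3). The log2 ratio was -1.12 (-1.57 to -0.71). Per onset erythroblast there were 0.723 cells before hemoglobin, 0.666 intermediate and 2.22 late cells in WT. In Cko there were 2.7, 1.84 and 5.62. The members spread over the hemoglobin range in like proportions: 15.8%, 26.9%, 24.4% and 32.9% of WT members lay in the bins of 1 to 2%, 2 to 5%, 5 to 10% and 10 to 20%, against 18%, 24%, 30% and 28% of Cko members. The intervals of these 4 shares overlapped between the libraries. The plot of erythroid cells by hemoglobin content shows these shares. The part of free hemoglobin RNA, whose values are given above, was not tested.

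**Figure D1:**
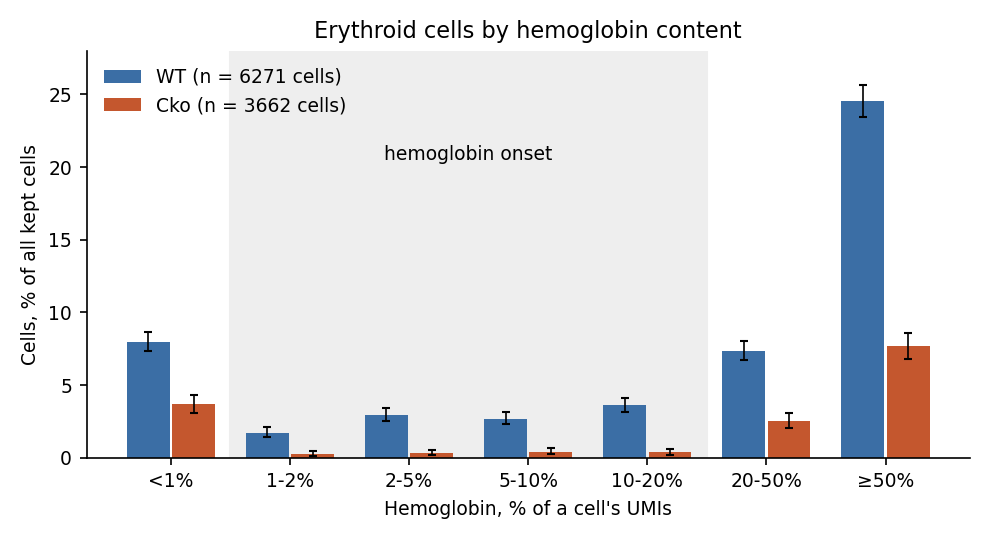
Share of all kept cells (y axis, %) against the hemoglobin share of a cell's UMIs (x axis, %), for the WT (blue) and Cko (orange) libraries; bars are 1 library each and error bars exact binomial 95% intervals. The 4 bins of hemoglobin onset (grey) together hold 11.0% of WT and 1.37% of Cko cells, and the Cko bar is the lower one in every bin.

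Levels are given as CPM, the UMIs of a gene in counts per 1000000 UMIs of the same cells without hemoglobin genes, since the rule used hemoglobin. Of the 5 markers, *Tmem14c* (chr13:41016292-41022586), whose product moves a heme precursor in mitochondria, stood at 1018 CPM before hemoglobin in WT. It was at 1864, 2200, 2503 and 2628 CPM over the 4 hemoglobin bins, at 3089 CPM in intermediate cells and at 1005 CPM in late cells. In Cko the same stages gave 522, 1540, 1556, 2079, 2342, 2621 and 864 CPM. *Tmem14c* thus increased in level from bin to bin in both libraries, was highest at the intermediate stage, and was lower in Cko at every stage. Its ratio of onset to the stage before was 2.27 in WT and 3.56 in Cko.

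*Hebp1* (chr6:135137522-135198022), which encodes a heme-binding protein, was at 764 CPM in WT and 602 CPM in Cko members, 2.70-fold and 5.02-fold its level before hemoglobin. *Smim1* (chr4:154020470-154026230), the gene of the Vel blood group antigen, was at 491 CPM and 312 CPM, a Cko to WT ratio of 0.634 (0.558 to 0.719). *Cd59a* (chr2:104095801-104115354), whose product inhibits complement, went from 10.8 CPM before hemoglobin to 29.6, 68.8, 130 and 170 CPM over the bins in WT. Its ratio to the stage before was 9.46 in WT and 1.33 in Cko. *Car1* (chr3:14766216-14808368), a carbonic anhydrase gene, did not follow hemoglobin: its WT bins were at 854, 773, 824 and 923 CPM, after 1091 CPM before hemoglobin, and its late cells at 132 CPM. Members held 841 CPM of *Car1* in WT and 1108 CPM in Cko.

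The cells before hemoglobin were not erythroid alone, which bears on every ratio to that stage. Megakaryocyte markers summed to 2889 CPM there in WT and 3390 CPM in Cko, against 281 and 508 CPM in members, and the markers of basophils and mast cells to 25.2 CPM in WT and 611 CPM in Cko. RNA of erythroid genes was also found in B cells, where it can be stray RNA. *Slc4a1* was held by 10.8% of WT and 2.19% of Cko B cells, and *Alas2* by 11.6% and 3.76%. *Slc25a37*, in contrast, was held by 12.5% and 13.3%. Before hemoglobin, *Slc4a1* was held by 21.6% of WT and 4.44% of Cko cells. The part of these other cell types and of stray RNA in the larger Cko ratios of erythroid genes was not tested.

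**Figure D2:**
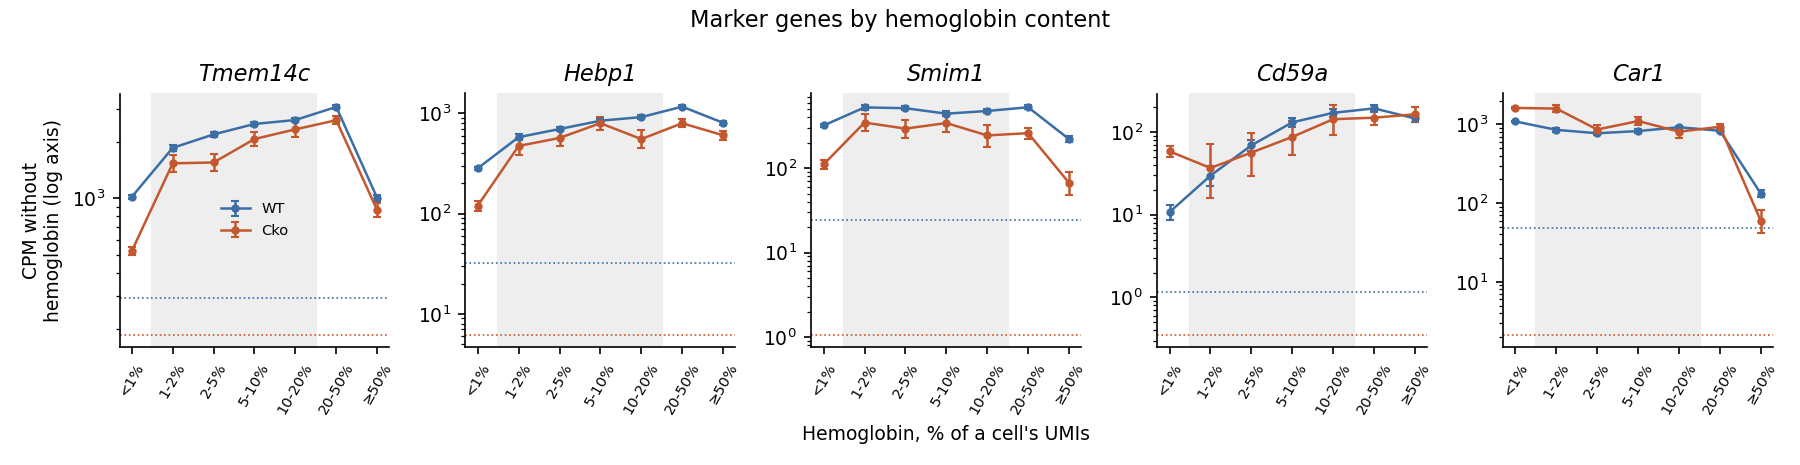
Level of the 5 markers (y axis, CPM without hemoglobin, log scale) against the hemoglobin share of the cells (x axis, %), for WT (blue) and Cko (orange) with exact Poisson 95% intervals; dotted lines are B cells of the same library. In WT, *Tmem14c*, *Hebp1* and *Cd59a* climb across the grey onset range while *Car1* stays between 773 and 923 CPM.

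A gene was compared when it was listed in both libraries and had at least 100 UMIs over the members, which 4511 genes met. Without replicates, a gene counted as different at 2-fold or more, whatever its interval. Between members and cells before hemoglobin, 4.9% of 4507 genes were higher in both libraries and 5.37% were lower in both. Against intermediate cells, 9.69% of 4511 genes were higher in both libraries and 4.74% lower in both. Within WT members, the bin of 10 to 20% hemoglobin was at least 2-fold above the bin of 1 to 2% for 4.39% of 3532 genes and at least 2-fold below it for 3.71%. These shares are the background for the counts that follow. The median log2 ratio over all genes was -0.11 in WT and -0.04 in Cko against the stage before, 0.11 and 0.10 against intermediate cells, and -0.06 between the bins.

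All 8 heme synthesis genes that could be compared were at least 2-fold higher in members than before hemoglobin in both libraries, and 6 of the 8 were at least 2-fold lower than in intermediate cells. Their median log2 ratio to the stage before was 1.48 in WT and 2.20 in Cko, and that to intermediate cells -1.16 and -1.38. The ninth gene of the list, *Alas1*, the form used outside the red cell lineage, stayed under 100 UMIs. *Alas2*, the first enzyme of the erythroid pathway, was at 16.3 CPM before hemoglobin in WT and at 31.3, 83.5, 241 and 542 CPM over the bins. It reached 1737 CPM in intermediate and 7472 CPM in late cells. In Cko it was at 4.5 CPM, then 22.9, 98.4, 435 and 730 CPM, and later at 2291 and 10085 CPM. The WT level in the last bin was 17.3-fold (13.2 to 23.2) that of the first bin. Averaged over members, *Alas2* was at 231 CPM in WT and 303 CPM in Cko.

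*Fech*, whose enzyme inserts iron in the last step, was 3.32-fold and 5.07-fold its level before hemoglobin in WT and Cko. *Alad* was 2.44-fold and 3.27-fold, and *Cpox* 2.15-fold and 3.74-fold. *Cpox* and *Uros* were the heme genes that did not reach 2-fold between members and intermediate cells in both libraries. The summed level of the pathway was 3783 CPM in WT and 3621 CPM in Cko members. Not 1 of the 8 genes differed 2-fold between the libraries, beside 1.11% of all genes higher and 2.04% lower in Cko. Their median log2 ratio was -0.11 beside -0.08 over all genes. *Uros*, the fourth enzyme, had the lowest ratio, at 0.639 (0.479 to 0.838).

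Of 8 heme transport and use genes, 5 were at least 2-fold higher than before hemoglobin in both libraries. They were *Slc25a37*, the mitochondrial iron importer mitoferrin, at 9.84-fold and 16.0-fold, *Abcb10*, a mitochondrial transporter, at 3.67-fold and 5.97-fold, *Blvrb* at 2.19-fold and 3.19-fold, and the markers *Tmem14c* and *Hebp1*. *Abcb10* was lower in Cko than in WT members, with 127 CPM against 74.1 CPM and a ratio of 0.583 (0.444 to 0.754). Of 15 genes of iron uptake and iron-sulfur assembly, *Fth1*, the ferritin heavy chain, was the 1 that passed 2-fold in both libraries. Its level was 4768 CPM before hemoglobin and 9602 CPM in members in WT.

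**Figure D3:**
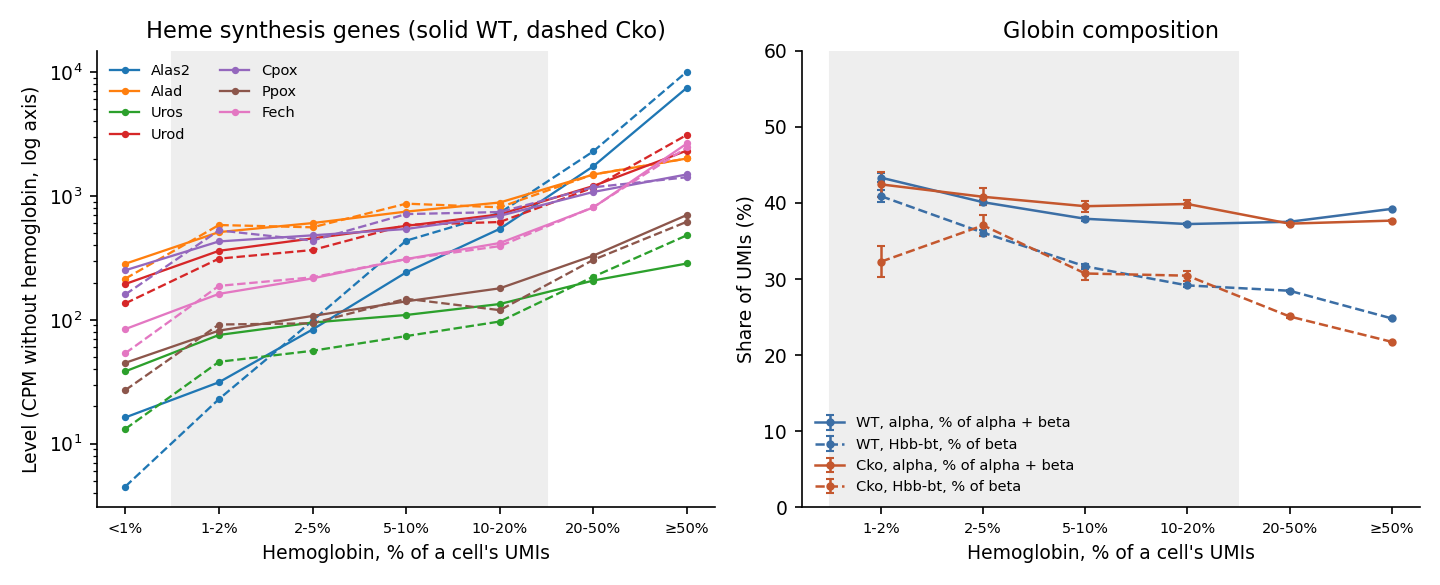
Left, level of 7 heme synthesis genes (y axis, CPM without hemoglobin, log scale) against the hemoglobin share of the cells (x axis, %), with WT as solid and Cko as dashed lines. Right, alpha-globin as a share of alpha plus beta UMIs (solid) and *Hbb-bt* as a share of beta UMIs (dashed), with exact binomial 95% intervals. *Alas2* climbs most steeply, from 31.3 to 542 CPM over the WT onset bins, while both globin shares decline over these WT bins.

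The split of hemoglobin UMIs between alpha and beta chains was not used by the rule. Alpha-globin made up 38.02% of hemoglobin UMIs in WT members (37.9 to 38.1) and 40.0% in Cko (39.7 to 40.4). In WT the share went down over the bins, with 43.3%, 40.1%, 37.9% and 37.2%, and was 37.5% in intermediate and 39.2% in late cells. In Cko the bins held 42.4%, 40.8%, 39.6% and 39.9%, and later cells 37.3% and 37.7%. The difference of 2.03 percentage points between the libraries was 1.03 when the 4 bins were given equal weight. Per cell, the alpha share had a median of 39.0% in WT (quartiles 35.7 and 43.0) and 40.4% in Cko (quartiles 37.5 and 44.5), so the cells of both libraries overlapped broadly. Hemoglobin UMIs in B cells, taken as free RNA, held 33.6% and 30.0% alpha-globin. Their part in the lowest bins was not tested.

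Among the adult beta chains, *Hbb-bt* took 40.9%, 36.1%, 31.7% and 29.2% of beta UMIs over the WT bins, then 28.5% and 24.8% in later cells. In Cko the values were 32.3%, 37.1%, 30.7%, 30.4%, 25.1% and 21.8%. *Hbb-bs* and *Hbb-bt*, like *Hba-a1* and *Hba-a2*, are near-identical copies, so reads could be split between them and their separate shares are uncertain. Embryonic *Hba-x* was listed in WT alone, with 19 UMIs over its members.

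Many red cell membrane and blood group genes were higher at onset. Of 28 compared, 15 were at least 2-fold higher than before hemoglobin in both libraries and 11 at least 2-fold lower than in intermediate cells. Of 26 with enough UMIs in the bins, 12 were at least 2-fold higher in the last than in the first WT bin. *Slc4a1*, the anion exchanger band 3, went from 15.0 CPM before hemoglobin to 294 CPM in WT members and was at 1066 CPM in intermediate cells. It was 19.5-fold its earlier level in WT and 118-fold in Cko, and 7.37-fold (6.09 to 8.98) higher in the last than in the first WT bin. The cytoskeletal genes *Sptb* (3.04-fold and 4.12-fold), *Tmod1* (20.1-fold and 66.7-fold) and *Dmtn* (4.95-fold and 27.8-fold) were also higher. *Slc4a1* and *Dmtn* were each held by 4.44% of the 135 Cko cells before hemoglobin, so their Cko ratios rest on few cells. The Rhesus gene *Rhd* was 2.73-fold and 6.37-fold higher. *Cd44*, an adhesion receptor of early cells, was at 47.2 CPM before hemoglobin and 20.8 CPM in WT members. Summed over the list, members held 8171 CPM in WT and 7344 CPM in Cko. No membrane gene differed 2-fold between the libraries, beside 1.11% of all genes higher and 2.04% lower in Cko. *Sptb*, with a ratio of 0.618 (0.478 to 0.787), was among the lowest.

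Of 13 erythroid factors compared with the stage before, 3 were at least 2-fold higher in both libraries. *Sox6*, a repressor of embryonic globin, was 8.05-fold and 13.1-fold higher, *E2f2* 6.03-fold and 9.41-fold, and *Hemgn* 4.29-fold and 7.55-fold. *Tal1* was at 83.0 CPM before and 105 CPM at onset in WT, and *Lmo2* at 261 and 327 CPM. *Gata1* and *Klf1* had been used to choose the earlier cells and were compared with intermediate cells alone. *Klf1* was at 616 CPM in WT members and 978 CPM in intermediate cells. *Bcl11a*, which represses embryonic globin genes, was at 157 CPM before hemoglobin, 93.8 CPM at onset and 41.9 CPM at the intermediate stage in WT. *Hemgn* was lower in Cko than in WT members, at 409 CPM against 636 CPM (ratio 0.642, 0.574 to 0.716).

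Some progenitor genes were lower at onset. Of 12 compared, 1, *Cpox* of the heme list, was at least 2-fold higher and 3 at least 2-fold lower than before hemoglobin in both libraries, namely *Myc* and the metallothioneins *Mt1* and *Mt2*. *Mt1* went from 1059 CPM to 242 CPM in WT and from 1494 CPM to 306 CPM in Cko. *Myc* was at 75.5 CPM before, 19.1 CPM at onset and 4.86 CPM at the intermediate stage in WT. The progenitor genes *Kit* and *Myb* were under 100 UMIs over members, at 2.39 and 8.85 CPM in WT. *Fam132a*, which encodes a secreted C1q-like protein, was at 453 CPM in WT members and 100 CPM in intermediate cells, and was among the 4 progenitor genes at least 2-fold higher than in intermediate cells in both libraries.

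Of 16 genes of terminal maturation, 10 were at least 2-fold higher than before hemoglobin in both libraries, and 8 at least 2-fold lower than in intermediate cells. Examples were *Trim10*, at 6.40-fold and 32.3-fold, *Hagh*, at 4.70-fold and 6.73-fold and the aspartic protease gene *Ctse*, at 4.14-fold and 9.08-fold. Of 18 redox genes, *Prdx2* and *Mgst3* were at least 2-fold higher and *Gsto1* at least 2-fold lower in both. *Mgst3* was at 159 CPM before hemoglobin and 1029 CPM in WT members. Among 85 ribosomal protein genes, 0 passed 2-fold in both libraries against either neighbouring stage, and their summed level was 390357 CPM in WT and 423877 CPM in Cko members. Of 12 mitochondrial transcripts, 4 were at least 2-fold higher than in intermediate cells in both libraries. The largest of these in UMIs was *mt-Nd1*, at 3539 CPM in WT members and 1489 CPM in intermediate cells.

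The members carried cell cycle transcripts that were higher in each later hemoglobin bin. S phase genes summed to 4884 CPM before hemoglobin in WT, to 7242, 7889, 8786 and 9138 CPM over the bins, and to 11688 CPM in intermediate cells. In Cko they summed to 3107 CPM, then 6474, 6980, 7967 and 8497 CPM, and to 10579 CPM. Of 34 S phase genes, 9 were at least 2-fold higher than before hemoglobin in both libraries, among them *Rrm2*, a subunit of ribonucleotide reductase (3.67-fold and 6.26-fold), and *Pcna*, the replication clamp (2.24-fold and 3.42-fold). The genes of G2 and M phase summed to 8508 CPM before hemoglobin in WT and went from 11360 CPM in the first bin to 17805 CPM in the last. In Cko they went from 6979 CPM to 10350 and 15826 CPM. Of 48 G2 and M phase genes, 9 were at least 2-fold higher in both libraries, among them *Mki67* at 2.06-fold and 2.80-fold. Not 1 of these 34 and 48 genes differed 2-fold between the genotypes, where 1.11% of all compared genes were 2-fold higher and 2.04% 2-fold lower in Cko. The summed levels were lower in Cko members, with a ratio of 0.897 (0.874 to 0.921) for S phase and 0.883 (0.866 to 0.901) for G2 and M phase. They were also lower in Cko B cells. There, S phase genes summed to 5114 CPM in WT and 4142 CPM in Cko. The G2 and M phase genes summed to 15122 CPM and 13604 CPM, so the lower levels were not particular to the members.

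The genes with the largest smaller ratio to the stage before, over both libraries, were *Fn3k*, *Gm867*, *Tmod1*, *Slc4a1*, *Slc6a9*, *Acp5*, *Hbq1b*, *Alas2*, *Adam33* and *1700034P13Rik*. *Fn3k*, a kinase that acts on glycated proteins, was 30.1-fold and 98.5-fold higher. *Gm867* was 41.0-fold higher in WT and had 0 UMIs in Cko cells before hemoglobin. *Slc6a9*, a glycine transporter gene whose substrate feeds heme synthesis, was 19.5-fold higher in WT, and *Acp5*, the tartrate-resistant acid phosphatase, 17.1-fold and 64.1-fold. Before hemoglobin, *Fn3k* was held by 0.741% and *Acp5* by 3.70% of 135 Cko cells, so their Cko ratios are imprecise. Against intermediate cells the leading genes were *Tfpi*, *Smyd2*, *Atad3a*, *Mrps6*, *Cluh*, *Nle1*, *Gdf3*, *Tspan4*, *Tmem216* and *Tma16*. They had few UMIs in intermediate cells, so their ratios are imprecise. *Smyd2* was at 15.7 CPM in WT members from 131 UMIs, with 2 UMIs in intermediate cells. *Tfpi*, an inhibitor of coagulation, was 11.4-fold (3.80 to 55.9) higher in WT.

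Genes that peaked at onset were scarce. In both libraries, 4 of 4507 genes (0.0888%) were at least 1.5-fold higher in members than in both neighbouring stages. *Rgs12*, a regulator of G protein signalling, was at 61.7 CPM in WT and 65.7 CPM in Cko members. It was 2.04-fold (1.75 to 2.37) and 3.24-fold (2.18 to 4.80) its level before hemoglobin, and 2.12-fold (1.64 to 2.78) and 2.31-fold (1.34 to 4.18) that of intermediate cells. The others were *Sqrdl*, *Fuca2* and *Chsy1*, whose Cko intervals against intermediate cells included 1. With all UMIs as the denominator the number was 8, of which 2 were shared with these 4.

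Between the genotypes, 50 of 4511 genes (1.11%) were at least 2-fold higher in Cko members and 92 (2.04%) at least 2-fold lower. The median log2 ratio was -0.08. The 50 Cko cells gave few UMIs per gene, and single cells set some of these ratios. Of the 10 genes with the lowest ratios, *Col1a1*, *Col1a2*, *Ifitm1*, *Myl9*, *Ppbp*, *Clec1b*, *Sparc*, *Gng11*, *Thbs1* and *Itgb3*, all 10 had more than 50% of their WT UMIs in 1 cell, and 3 WT cells held these. *Col1a1*, a collagen gene of bone, had 956 UMIs in WT, 98% of them in 1 cell, and 0 in Cko. *Ppbp*, a platelet chemokine, had 317 UMIs in WT and 1 in Cko. The 10 highest ratios were those of *Cdkn1a*, *Sapcd1*, *S100a6*, *Rps18-ps3*, *Gmfg*, *H2-D1*, *Aen*, *B2m*, *Rpl7a-ps5* and *Lgals3*. Of these, *S100a6* and *Lgals3* had 70.3% and 80.6% of their Cko UMIs in 1 cell. When the highest cell of each gene was left out of each library, 24 of the 50 genes and 88 of the 92 still differed 2-fold. This step takes a larger part of the UMIs of 50 cells than of 692, which works against higher and for lower calls. Over all genes compared, 196 were then at least 2-fold lower. Of the 50 and 92 genes, 16 and 19 also differed at least 2-fold in the same direction between the B cells of the libraries. Expression of *Xist* was found in the Cko library alone, where it had 818 UMIs over all 50 members, and *Ddx3y* and *Eif2s3y* in the WT library alone, in 197 and 298 members. Sex and genotype cannot be told apart.

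**Figure D4:**
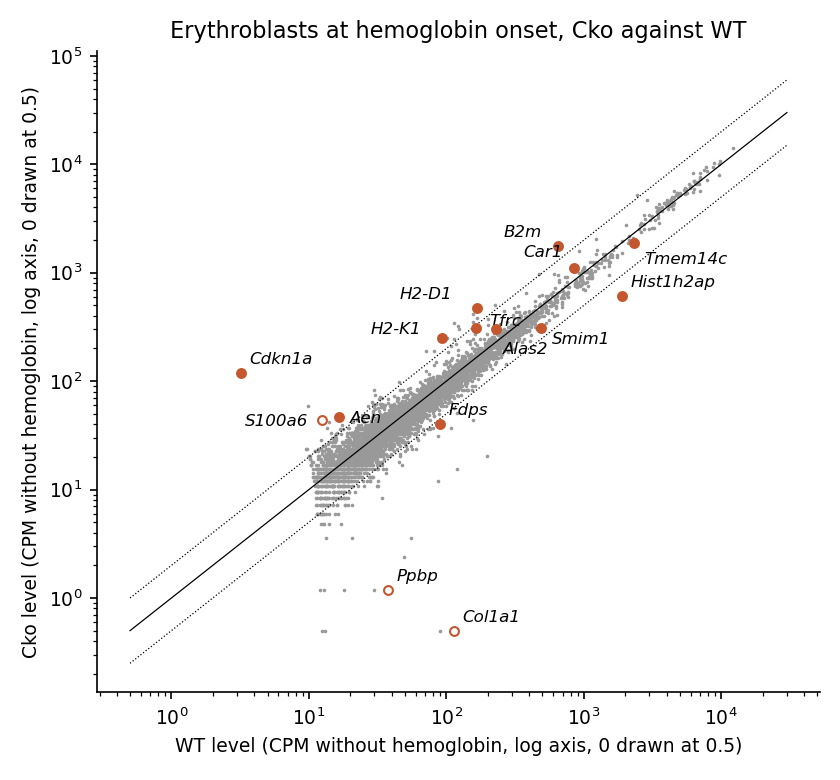
Level of each of 4511 genes in Cko members (y axis) against WT members (x axis), both in CPM without hemoglobin on log scales, with 0 drawn at 0.5; the solid line marks equal levels and the dotted lines 2-fold. *Cdkn1a*, *B2m*, *H2-D1* and *H2-K1* lie above the upper dotted line and *Hist1h2ap* below the lower one, and open circles are named genes with more than 50% of their UMIs in 1 cell.

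*Cdkn1a* (chr17:29090976-29100727), which encodes the cell cycle inhibitor p21, had the highest ratio of all compared genes. WT members held 27 UMIs in 16 of 692 cells (2.31%), and Cko members 100 UMIs in 24 of 50 cells (48%, 33.7 to 62.6). The levels were 3.23 CPM (2.13 to 4.70) and 119 CPM (97.2 to 145), a ratio of 37.0 (24.0 to 58.9). After thinning to 3000 UMIs, 0.723% of WT and 30% of Cko members held it. The ratio was 63.2, 41.9, 13.2 and 45.6 over the 4 hemoglobin bins, so that it was high in each. It was 33.6 (21.4 to 55.4) before hemoglobin, 52.3 (27.6 to 111) at the intermediate stage and 26.4 at the late stage. In B cells the ratio was 0.756 (0.557 to 1.02), at 17.9 CPM in WT and 13.5 CPM in Cko. The cell with the most UMIs held 18% of the Cko total, and without the highest cells the ratio was 37.2. With 127 UMIs over all members, the gene fell under the UMI minimum when hemoglobin was limited to 10% or when 300 UMIs were required, and was then not compared.

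Other targets of p53, the transcription factor that induces *Cdkn1a* after DNA damage and other stress, were listed after the level of *Cdkn1a* had been seen, so their number is a description. Of 8 compared without *Cdkn1a* itself, 1 was at least 2-fold higher in Cko and 0 lower, beside 1.11% and 2.04% of all genes. An interval above 1 was found for 4 of the 8, beside 8.02% of all genes. Their median log2 ratio was 0.30 in members and -0.25 in B cells. *Aen*, a p53-induced nuclease gene, was at 16.6 CPM in WT and 46.6 CPM in Cko (ratio 2.80, 1.91 to 4.02), with a ratio of 0.750 in B cells. *Ccng1* had a ratio of 1.48 (1.004 to 2.11), *Bax* 1.03, and *Mdm2*, which encodes the ligase that degrades p53, 0.773 (0.414 to 1.33).

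Among genes of MHC class I, *B2m*, *H2-D1* and *H2-K1* were at least 2-fold higher in Cko members. *B2m*, the light chain shared by class I molecules, was at 643 CPM in WT and 1780 CPM in Cko, a ratio of 2.77 (2.61 to 2.93). The ratio was 2.11, 3.20, 2.67 and 3.20 over the hemoglobin bins, 4.57 in late cells and 1.16 in B cells. The heavy chain gene *H2-D1* was at 167 CPM and 476 CPM (2.85, 2.55 to 3.19), and *H2-K1* at 92.2 CPM and 251 CPM (2.72, 2.32 to 3.17). Their B cell ratios were 1.53 and 1.47. In WT, *H2-D1* declined along the lineage, from 255 CPM before hemoglobin to 167 CPM in members and 122 CPM in late cells, whereas in Cko it was at 517, 476 and 866 CPM. Of 11 antigen presentation genes compared, listed after the values had been seen, 3 were at least 2-fold higher and 1, the immunoproteasome subunit gene *Psmb10* (0.495), lower. The median log2 ratio of these 11 genes was 0.91 in members and 0.03 in B cells. Of 12 interferon-responsive genes, also listed later, 0 were at least 2-fold higher and 3 lower. Their intervals lay above 1 for 2 genes and below 1 for 5. The median log2 ratio of the 12 was -0.76 in members and -0.77 in B cells. Both counts stand beside 1.11% of all genes higher and 2.04% lower. A part of interferon was not tested.

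The transferrin receptor gene *Tfrc*, which brings iron into the cell, was at 165 CPM in WT and 311 CPM in Cko, a ratio of 1.88 (1.64 to 2.15) that stayed under the 2-fold limit. The ratio was 2.64, 2.19, 1.71 and 1.32 over the bins, 1.99 at the intermediate and 2.90 at the late stage, and 1.11 before hemoglobin. In B cells it was 1.002. In WT the level of *Tfrc* went from 142 CPM in the first bin to 220 CPM in the last, while the Cko bins were at 376, 286, 287 and 291 CPM.

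Some histone genes were lower in Cko. Of 17 compared, a group taken by symbol after the values had been seen, 5 were at least 2-fold lower and 0 higher. Among all genes these shares were 2.04% and 1.11%. The median log2 ratio of the histone genes was -0.59 in members and 0.15 in B cells. *Hist1h2ap*, which encodes a histone of the replication cluster, was at 1897 CPM in WT and 613 CPM in Cko (ratio 0.323, 0.295 to 0.353), with a B cell ratio of 0.510. *Cdkn2d*, a cell cycle inhibitor gene, had a ratio of 0.358. Of 12 ribosomal pseudogenes compared, 9 (beside 1.11% of all genes) were at least 2-fold higher in Cko in members and 8 in B cells. Their median log2 ratios were 1.30 and 1.16. Reads of these copies can be shared with the parent genes, so their levels are uncertain. The ribosomal protein gene *Rps3a1* was at 2447 CPM in WT and 5244 CPM in Cko, with a ratio of 2.14 in members and 2.01 in B cells.

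**Figure D5:**
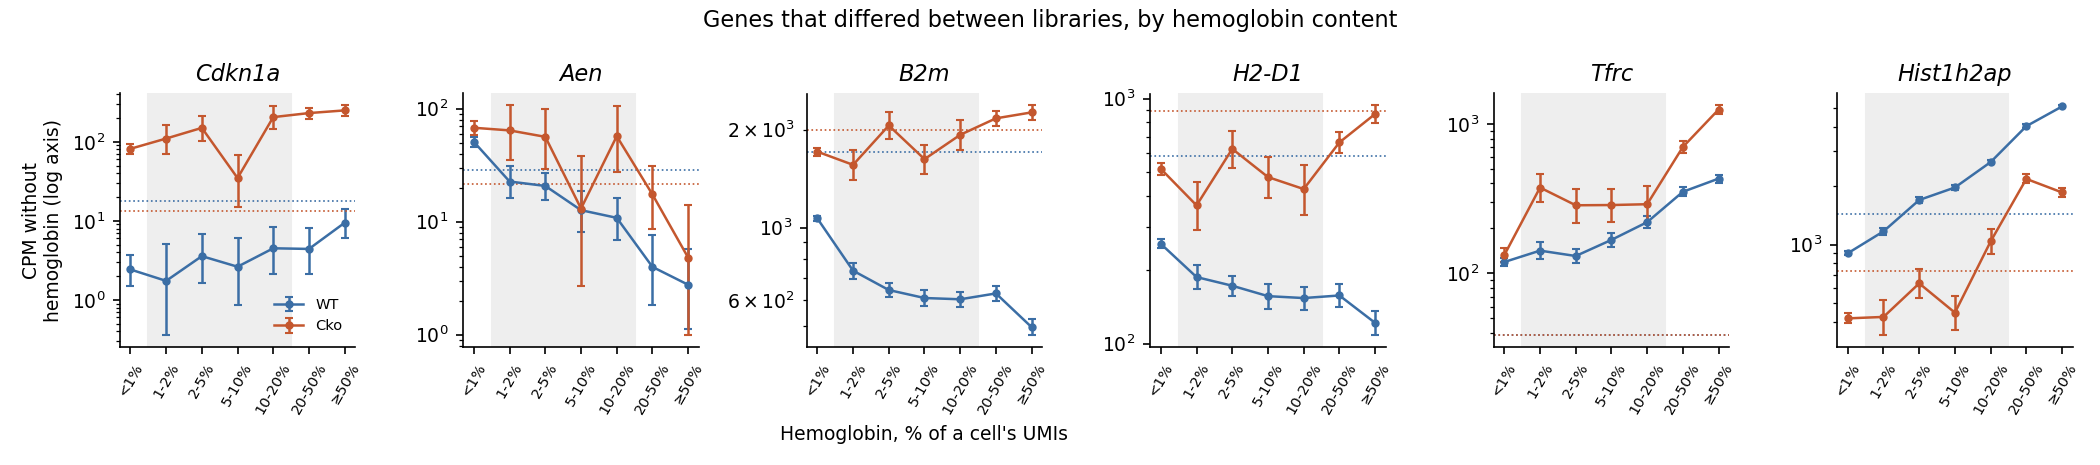
Level of 6 genes (y axis, CPM without hemoglobin, log scale) against the hemoglobin share of the cells (x axis, %), for WT (blue) and Cko (orange) with exact Poisson 95% intervals; dotted lines are B cells of the same library. *Cdkn1a*, *B2m* and *H2-D1* are higher in Cko at every stage, *Tfrc* is close to WT before hemoglobin, and *Hist1h2ap* is lower in Cko at every stage.

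S1P cleaves the membrane-bound precursors of SREBP and ATF6 factors, which act on cholesterol synthesis and on endoplasmic reticulum chaperones. Of 5 cholesterol synthesis genes compared, 1 was at least 2-fold lower in Cko members, beside 2.04% of all genes. It was *Fdps*, the farnesyl diphosphate synthase gene, at 89.6 CPM in WT and 40.6 CPM in Cko (ratio 0.453, 0.312 to 0.639), and its ratio in B cells was 0.494. The summed level of the cholesterol list was 229 CPM in WT and 152 CPM in Cko members, a ratio of 0.663 (0.550 to 0.794). It was also lower in Cko before hemoglobin, at 208 CPM against 311 CPM, and in intermediate cells, at 136 CPM against 196 CPM. Of 11 chaperone genes linked to ATF6, 0 differed 2-fold, beside 1.11% of all genes higher and 2.04% lower. At such shares, 0 of 11 is not a result about this list. Its summed level was 1013 CPM in WT and 958 CPM in Cko. *Mbtps1* itself was at 37.0 CPM in WT and 34.6 CPM in Cko members (ratio 0.937, 0.617 to 1.37). The 3′ tag lies outside the deleted exon and so does not check the deletion. *Sp7* was listed in WT alone, so its level in Cko is unknown. In WT it was found in 1 member, with 5 UMIs. Whether this was 1 of the 3 WT members with at least 3 stromal markers was not examined. Of 3 erythropoietin response genes compared, 0 differed 2-fold, beside the same shares of all genes. *Pim1*, a kinase gene of this response, had a ratio of 1.70 (1.30 to 2.20).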

How the data were processed

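Sc-RNA-Seq of BMCs from 1 WT and 1 Cko mouse was analysed. Per the labels, libraries were made with a Chromium Single Cell 3′ kit and processed with Cell Ranger against GRCm38, and the Cell Ranger version is not given in the sources used here. The authors deposited whole-number UMI counts per gene and barcode without normalization, 56382459 UMIs in 6287 WT and 34447224 UMIs in 3670 Cko barcodes. The lowest peak of any listed gene in a single cell was 4 UMIs, so genes missing from a table were not read as 0.

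UMIs were summed over cells and scaled to CPM without hemoglobin. Scrublet from scanpy 1.11.5 marked doublets with 5% set as the expected rate, and marked cells were kept. Calculations ran in Python 3.11.15 with pandas 2.3.3, scipy 1.17.1 and numpy 2.4.6, plots were drawn with matplotlib 3.10.9, and the ratio code was tested on simulated data. Gene positions are from GENCODE on GRCm38. Named genes were the 5 markers, genes of the lists, the 10 highest and 10 lowest Cko to WT ratios, the 15 leading genes at onset (those that met the 1.5-fold limit are named) and the 10 leading genes against each neighbouring stage. The members and the lists were chosen with earlier results of these data known. Lists of p53 targets, antigen presentation, interferon, histone and pseudogene families were added after values were seen, and other genes outside the rule were named for the same reason. Some genes of the lists are counted but not reported here by name. Alternatives changed the gene minimum, hemoglobin limits, doublets, marker requirement, denominator, UMI minimum, bin weights and depth. Those added later allowed up to 2 *Cd79a* UMIs, left out the highest cell of each gene, or removed cells with at least 3 megakaryocyte or stromal markers.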

Additional observations from a re-analysis of the deposited data

How the results depend on the processing

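No paired analysis was possible because each genotype had 1 library. Over 13 alternatives, 60 values were recomputed, of which 48 stayed close, 12 moved and 0 reversed. A close count did not mean that the genes were shared: with hemoglobin under 10%, 33 of the 50 higher and 46 of the 92 lower genes were called again, and with hemoglobin from 2%, 38 and 65. The difference in alpha-globin share was 1.07 percentage points with hemoglobin under 10% and 1.03 with equal weight of the 4 bins. With hemoglobin under 10%, 100% of Cko members held at least 3 markers, and after thinning to 3000 UMIs 88.9% of WT and 78% of Cko members did. Relative to cells with hemoglobin under 1%, the log2 ratio of the member share was -3.81. The number of genes highest at onset was 8 with all UMIs as the denominator and 2 with at least 300 UMIs per gene. With that UMI minimum, which tests fewer genes, 24 genes were higher and 35 lower in Cko. Without the highest cell of each gene in each library, 24 were higher and 196 lower, since leaving out 1 cell takes a larger part of the UMIs of 50 cells than of 692. Without cells that carried at least 3 megakaryocyte or stromal markers, chosen after seeing the data, 45 genes were higher and 82 lower. With up to 2 *Cd79a* UMIs allowed, 63 were higher and 69 lower. The number of 50 Cko cells limits all ratios between the genotypes.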
